A study of Mus musculus with 4 samples.

Results

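The collagen genes were taken as the genes whose symbol reads Col, a number, a and a number, which gave 44 of the 22180 genes measured. A probe set is the group of array probes that stands for a transcript, and those that the platform annotation ties to exactly 1 gene symbol were used. Where a gene had more than 1 probe set, as Col1a2, Col5a1 and Col6a1 did, the one with the highest mean over the 4 arrays stood for it, and 1 further probe set shared by Col6a1 and other genes was left out. The RNA came from 4T1, a mouse mammary carcinoma line, as 2 samples of cells with a short hairpin RNA against Ldha (shLDHA) and 2 samples of cells with a scrambled hairpin (scramble). Ldha encodes the subunit of lactate dehydrogenase that turns pyruvate into lactate. The shLDHA cells were a pool of cells selected with puromycin at 10 µg/ml, and selection of the scramble cells is not recorded in the labels, so selection and knockdown cannot be told apart. Both groups had been cultured for 24 hours in complete medium, and neither the promoter of the hairpins nor the number of hairpin sequences against Ldha is given in the sources used here. Nothing in the labels says that the 2 samples of a group were separate cultures, so the p-values measure how far these arrays differ, and that spread may be technical. In such bulk RNA, fewer cells of a type and less RNA per cell cannot be told apart.

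Collagens are secreted or membrane-bound proteins built of 3 chains wound into a triple helix, and each gene encodes 1 kind of chain. Fibrillar collagens form the cables of connective tissue and are made mainly by fibroblasts, whereas type IV collagens form the sheet of the basement membrane on which epithelial cells rest. Other classes join fibrils to each other, anchor the basement membrane to the tissue below it, or span the plasma membrane. In mammary tumours collagen comes from stromal cells as well as from the carcinoma cells, and in this culture the carcinoma line was measured without a stroma.

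The targeted gene was lower in the knockdown. Ldha read 6.31 and 6.15 on the shLDHA arrays, against 6.69 and 6.96 on the scramble arrays, in log2 expression units. The log2 change was -0.59 (SE 0.12), with an adjusted p of 0.0390 in limma, the linear model used for every gene. Leaving out scramble replicate 2 raised the adjusted p to 0.128. It was 0.0965 when shLDHA replicate 1 was dropped and 0.163 when shLDHA replicate 2 was dropped, so the call was lost in these 3 fits. Of 8 epithelial markers, 8 lay above background, and their mean level was 8.65 and 8.65 on the shLDHA arrays against 8.67 and 8.66 on the scramble arrays. Among them Epcam (log2 change 0.53, adjusted p = 0.0178) and Krt8 (0.47, adjusted p = 0.0255) rose and Cldn7 fell (-1.06, adjusted p = 0.00242). The arrays of the groups did not overlap for 8 of these 8 markers, with shLDHA above in 5 and below in 3. The same lack of overlap held for 66% of all genes above background. The near-equal means therefore join changes in both directions. Of 10 fibroblast markers 2 lay above background, Pdgfra and Acta2, with means over the 4 arrays of 6.50 and 4.53. The mean level of all 10 fibroblast markers was 3.53 and 3.55 on the shLDHA arrays against 3.55 and 3.54 on the scramble arrays. Of 8 endothelial markers 0 lay above background, and of 7 leukocyte markers Cd68 and Cd14 did. No fibroblast or endothelial marker passed the test, and Cd68, a gene of lysosomes best known from macrophages, fell (log2 change -0.91, adjusted p = 0.00516). The part of these marker changes in the collagen results was not tested.

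Background was set at 4.16, the level under which 95% of 1088 olfactory receptor genes lay in their mean over the 4 arrays, since cultured mammary cells should not express those genes. By this measure 13 of the 44 collagen genes (29.5%) were above background, against 48.4% of all genes tested. They were Col8a1 of the short chain collagens, Col4a1, Col4a2 and Col4a5 of type IV, and Col18a1, the multiplexin whose cleaved end is known as endostatin. The others were the anchoring fibril gene Col7a1, the fibrillar Col5a1, the fibril-associated Col16a1 and Col9a2, the type VI gene Col6a1, the transmembrane genes Col23a1 and Col25a1, and Col26a1. Each of these 13 was above the level on each of the 4 arrays. The nearest to the line were Col26a1 at 4.27 just above it and Col9a3 at 4.14 just below it. The count depends on where the line is drawn, and it was 22 with the 90th percentile of the olfactory receptor genes and 5 with the 99th.

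The genes of the main collagens of connective tissue lay below that line. Col1a1, which encodes the chain present in 2 copies in type I collagen, read 3.43 and 3.53 on the shLDHA arrays and 3.43 and 3.68 on the scramble arrays. Col3a1, the gene of type III collagen, read 3.48 and 3.49 on the shLDHA arrays and 3.39 and 3.67 on the scramble arrays. In both genes the arrays of the 2 groups overlapped, and the log2 changes were -0.07 and -0.04. Signals near the floor of an array are compressed, so the change of a dim gene may be understated. A level also depends on the probes, so the order of different genes on this scale is not an order of their transcripts. The plot of all 44 genes by array shows the few that stand clear of the background line.

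**Figure D1:**
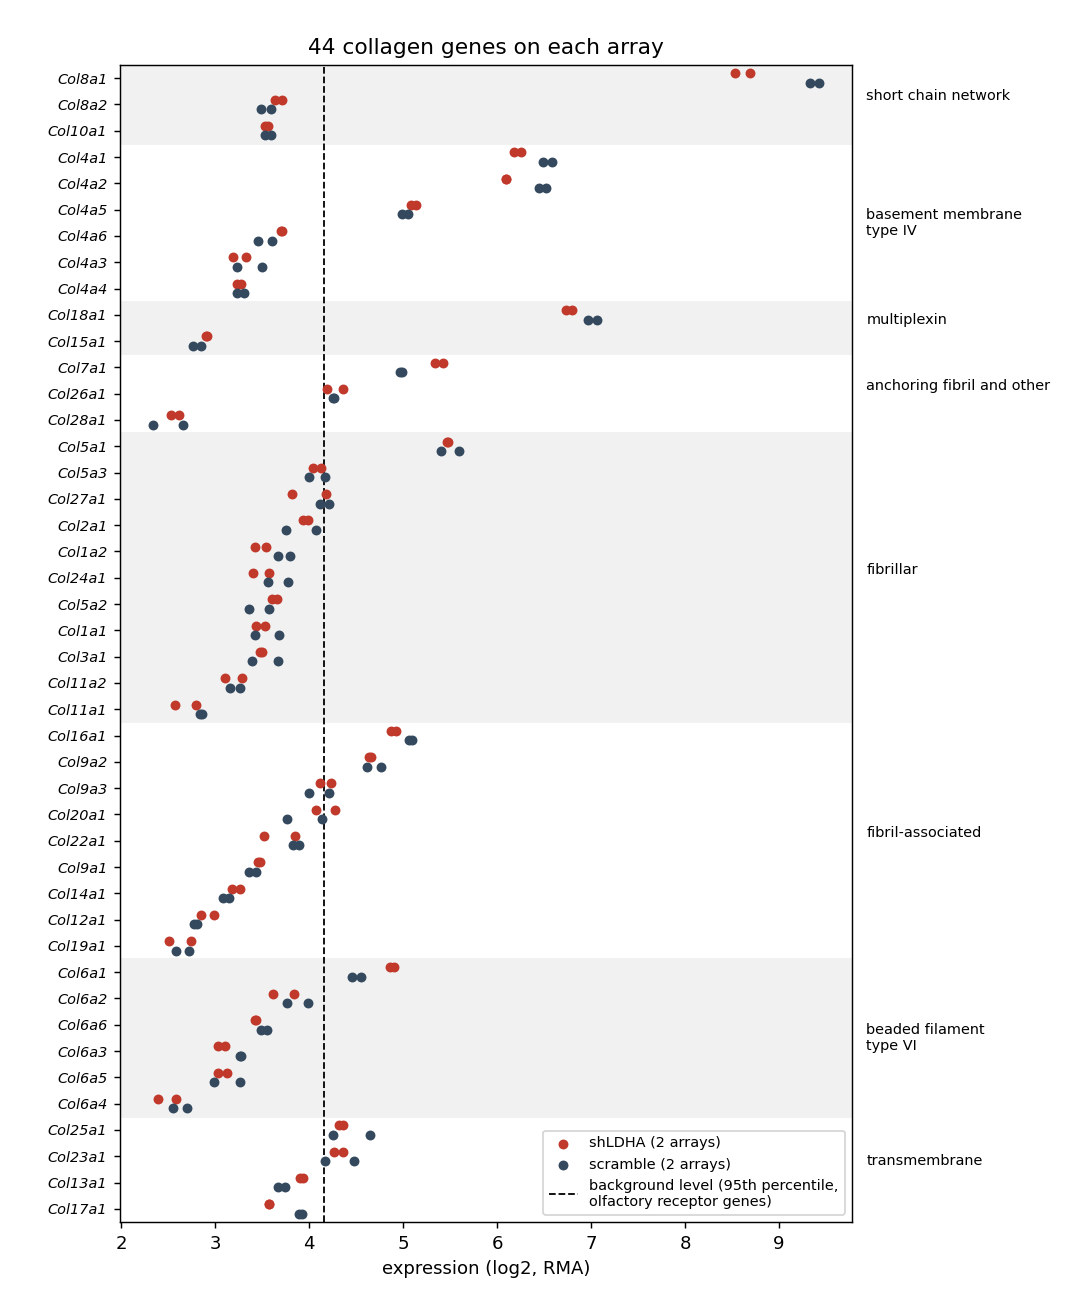
Each row is 1 of the 44 collagen genes, grouped by class, with its log2 expression on the 2 shLDHA arrays (red, upper) and the 2 scramble arrays (dark grey, lower) along the x axis. The dashed line is the background level of 4.16, and 13 genes have a mean to its right. Col8a1, Col4a1 and Col4a2 show the shLDHA arrays to the left of the scramble arrays, and Col7a1 and Col6a1 show them to the right.

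The comparison of shLDHA with scramble cells asks which of these genes differed with the Ldha hairpin. Col8a1, which encodes a chain of the short network-forming type VIII collagen of vessel walls and cornea, fell 1.70-fold in shLDHA cells. Col4a2, a chain of the basement membrane, fell 1.31-fold, and Col7a1, the gene of the anchoring fibrils that tie the basement membrane to the stroma, rose 1.32-fold. The remaining 41 genes did not pass the test, a Benjamini-Hochberg adjusted p under 0.05 in limma over all genes. Thus 3 of 44 passed (6.82%), while 6.36% of all genes tested did. By direction, 1 rose, where 3.37% of all genes did, and 2 fell, where 2.99% did. The share of collagen genes that passed was therefore near that of all genes. At an unadjusted p under 0.05, 10 of the 44 genes passed (22.7%), and 21.5% of all genes did. At an adjusted p under 0.1, 6 of the 44 passed, and 10.8% of all genes did. The median log2 change was -0.03 over the 44 genes and 0.01 over all genes tested. The 3 that passed were among the 13 genes above background, of which 23.1% passed, against 11.9% of all genes above background.

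Arrays of the groups did not overlap for 21 of the 44 genes, 11 with both shLDHA arrays above and 10 with both below. That was 47.7% of the collagen genes, and the same held for 50.3% of all genes, 26.2% with both shLDHA arrays above and 24% with both below. Of the 13 collagen genes above background, 8 had groups that did not overlap, while 66% of all genes above background did. These shares of genes without overlap were near or below those of all genes. The log2 change was negative for 27 of the genes and positive for 17, and 1 of the 44, Col8a1, changed by more than 0.5 in either direction (2.27%, against 4.66% of all genes). With 2 arrays per group the 95% interval of a log2 change reached between 0.19 and 0.34 to each side of its value. These intervals are per gene and are not adjusted for the number of genes tested. A change below that size could not be told from none at this number of arrays. A larger change could still fail the adjusted test, as that of Col6a1 did (0.38, 95% interval 0.18 to 0.59).

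**Figure D2:**
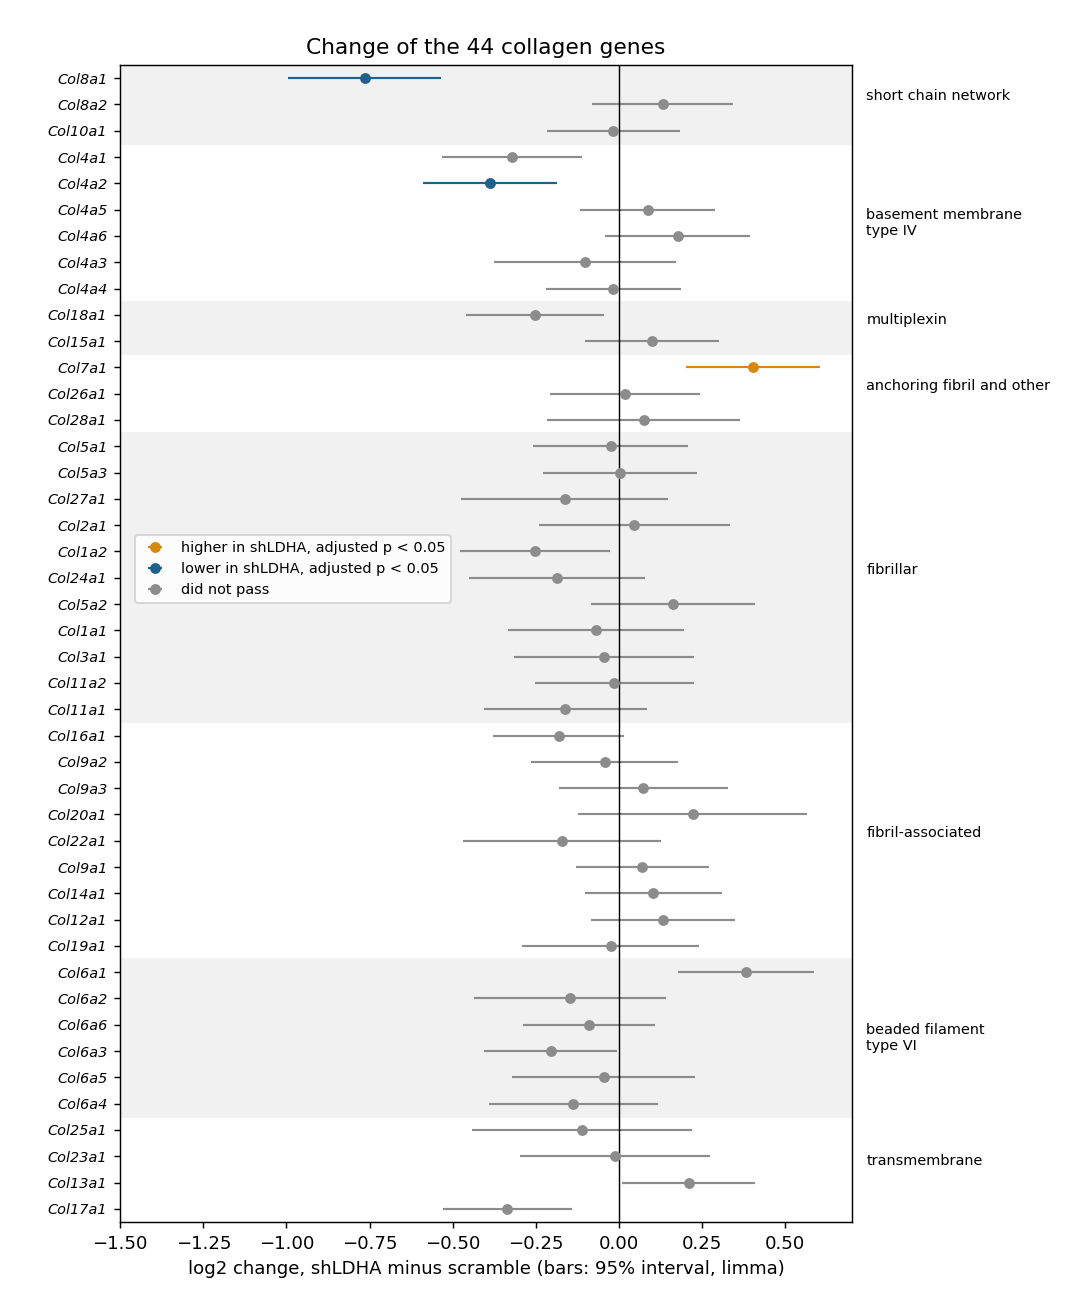
Points are the log2 change of each collagen gene, shLDHA minus scramble, and bars are the 95% interval from limma, with genes grouped by class down the page. Col8a1 at -0.77 and Col4a2 at -0.39 were lower in shLDHA and Col7a1 at 0.40 was higher at an adjusted p under 0.05. The 41 genes that did not pass are grey.

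Col8a1 read 8.69 and 8.53 on the shLDHA arrays, against 9.33 and 9.42 on the scramble arrays. Both shLDHA arrays lay well below both scramble arrays, by more than either group's own spread. Col8a1 averaged 8.61 ± 0.12 in shLDHA cells and 9.38 ± 0.06 in scramble cells (SD, n = 2 each). The log2 change was -0.77 (SE 0.10, 95% interval -0.99 to -0.54) with an adjusted p of 0.00922 in limma. It passed in 11 of 13 alternative settings. Without shLDHA replicate 2 the adjusted p was 0.0564, and with all 41345 probe sets tested it was 0.0846. Col8a2, the partner chain of type VIII, was below background, with 3.71 and 3.63 on the shLDHA arrays and 3.59 and 3.49 on the scramble arrays. Its log2 change was 0.13 (adjusted p = 0.468). Col10a1, the related gene of hypertrophic cartilage, was below background as well and changed by -0.02 (adjusted p = 0.944).

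The bases before the annotated start are shown for Col8a1 and Col7a1, because both passed. They come from RefSeq, build GRCm38.p6, which held a window of 300 bases (250 before and 50 after a start) for 35 of the 44 genes, 3 of them with 2 windows. The windows were searched on both strands, with overlapping matches counted, for the GC box with the letters GGGCGG, the CCAAT box with those letters, the TATA box with the letters TATAAA and the AP-1 site with the letters TGANTCA. In the sequences, capitals mark GC box and CCAAT matches in either orientation, and no TATAAA was found in them. The Col8a1 stretch is chr16:57754738-57754987 on the minus strand and the Col7a1 stretch is chr9:108953336-108953585 on the plus strand.
Col8a1: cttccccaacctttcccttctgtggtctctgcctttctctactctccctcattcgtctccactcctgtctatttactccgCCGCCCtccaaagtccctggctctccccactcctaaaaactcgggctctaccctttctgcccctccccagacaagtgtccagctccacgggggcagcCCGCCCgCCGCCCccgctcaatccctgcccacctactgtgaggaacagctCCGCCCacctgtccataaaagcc
Col7a1: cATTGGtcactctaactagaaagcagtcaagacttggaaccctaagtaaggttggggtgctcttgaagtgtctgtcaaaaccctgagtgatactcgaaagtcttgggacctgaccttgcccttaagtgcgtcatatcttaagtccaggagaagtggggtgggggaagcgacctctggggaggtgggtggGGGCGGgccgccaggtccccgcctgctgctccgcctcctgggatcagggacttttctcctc
Col8a1 held 4 GC box matches and Col7a1 held 1 with 1 CCAAT match far upstream. A GC box match was present in 23 of the 38 collagen windows (60.5%) and in 35.7% of all 32851 windows of that length. CCAAT was present in 34.2% of the collagen windows and 37.4% of all, and TATAAA in 13.2% and 13.6%. TGANTCA was found in 1 collagen window, that of Col6a1 (2.63%, against 7.81% of all). A match describes letters and is not a site of binding.

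Of the type IV genes, Col4a1 and Col4a2 encode the chains that make the common basement membrane trimer. Col4a2 read 6.10 and 6.10 on the shLDHA arrays, against 6.45 and 6.52 on the scramble arrays. Its log2 change was -0.39 (SE 0.08, 95% interval -0.59 to -0.19) with an adjusted p of 0.0464. Col4a1 read 6.18 and 6.25 on the shLDHA arrays, against 6.49 and 6.59 on the scramble arrays. In both genes both shLDHA arrays lay below both scramble arrays. The log2 change of Col4a1 was -0.32 (SE 0.09, 95% interval -0.53 to -0.11), and at an adjusted p of 0.0918 it did not pass. It passed in 2 of 13 alternative settings, at 0.0254 with genes at or above the median level tested and at 0.0415 with an eBayes trend.

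Col4a1 and Col4a2 lie head to head on chromosome 8 and are read from opposite strands, and their RefSeq windows overlap by 78 bases. The annotated genes overlap by 22 bases at their starts, chr8:11312805-11312826. That stretch is printed on the plus strand from the Col4a2 start to the Col4a1 start, because the pair shares it, with a GC box match in capitals. The whole Col4a2 window held 3 GC box matches and 1 CCAAT match, and the Col4a1 window held 1 of each. The GC box match of the Col4a1 window is the one printed, so it is counted in both windows.
Col4a2 to Col4a1: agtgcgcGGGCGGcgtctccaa
None of the genes of the other head-to-head pairs of type IV passed. Col4a5 and Col4a6, neighbours on the X chromosome, changed by 0.09 and 0.18, and Col4a3 and Col4a4, neighbours on chromosome 1, by -0.10 and -0.02. Col4a5 was above background, at 5.14 and 5.08 on the shLDHA arrays and 5.05 and 4.99 on the scramble arrays, and both shLDHA arrays lay slightly above both scramble arrays (adjusted p = 0.638). The other 3 of these genes were below background. Of the 6 type IV genes, 1 fell, 0 rose and 5 did not pass.

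Col18a1, whose product is also a component of basement membranes, read 6.73 and 6.79 on the shLDHA arrays, against 7.06 and 6.97 on the scramble arrays. Both shLDHA arrays lay below both scramble arrays, but the log2 change of -0.25 (95% interval -0.46 to -0.05) had an adjusted p of 0.155 and did not pass. Its relative Col15a1 was below background and changed by 0.10.

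Col7a1 read 5.42 and 5.34 on the shLDHA arrays, against 4.97 and 4.99 on the scramble arrays. Both shLDHA arrays lay above both scramble arrays. The log2 change was 0.40 (SE 0.08, 95% interval 0.20 to 0.60) with an adjusted p of 0.0423. Col26a1 was above background and changed by 0.02, and Col28a1 was below it and changed by 0.07.

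The calls of Col4a2 and Col7a1 were close to the threshold. Both were lost whichever array was left out, with adjusted p from 0.126 to 0.200 for Col4a2 and from 0.115 to 0.161 for Col7a1. With all 41345 probe sets tested the adjusted p was 0.165 for Col4a2 and 0.160 for Col7a1, and 0 of the 44 genes passed in limma. In that fit 7 had an unadjusted p under 0.05, against 10 in the fit as reported, where 21.5% of all genes had one. Rescaling the arrays split the calls differently. Quantile normalization applied again left 2 genes lower and 0 higher, and centring each array on its median left 3 lower, with Col17a1 added, and 0 higher. The adjusted p of Col7a1 was 0.0650 and 0.0558 in these fits, with the log2 change still positive at 0.36 and 0.37.

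**Figure D3:**
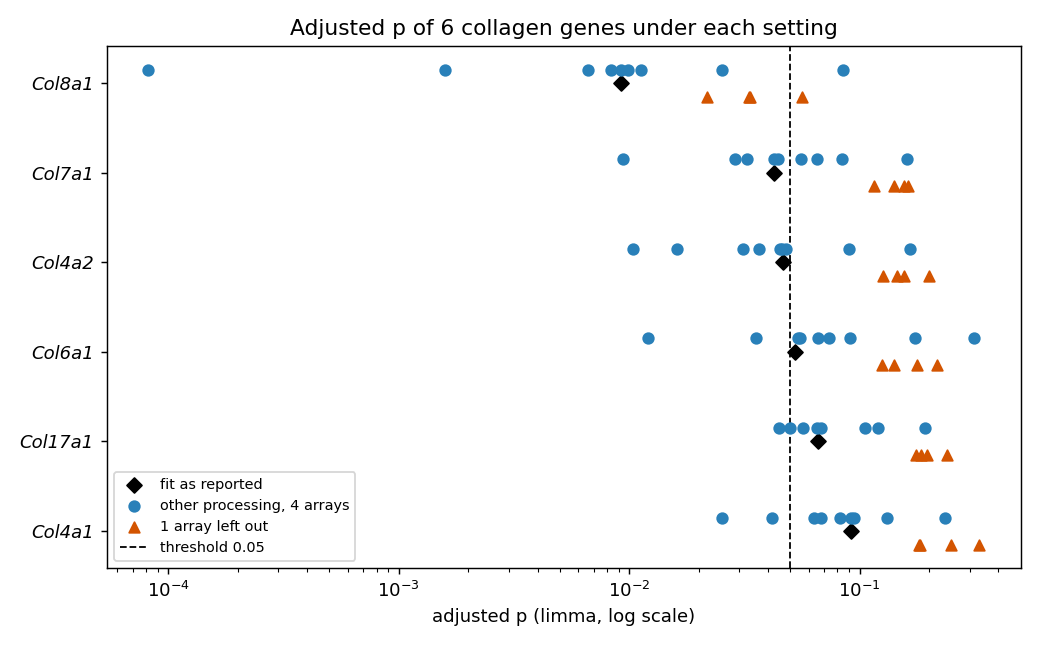
The x axis is the adjusted p from limma on a log scale for 6 collagen genes, with the fit as reported (black), 9 other ways of processing (blue, 8 for Col17a1, which 1 filter left out) and 4 fits without 1 array (orange). The dashed line is the threshold of 0.05. The points of Col8a1 lie mostly left of it, while Col7a1 and Col4a2 have all 4 orange points to its right.

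Among the 6 genes of type VI, the beaded filament collagen that surrounds cells, 0 passed in limma, and 2, Col6a1 and Col6a3, had an unadjusted p under 0.05. Col6a1 came nearest, with 4.86 and 4.90 on the shLDHA arrays, against 4.45 and 4.55 on the scramble arrays. Both shLDHA arrays lay above both scramble arrays, with a log2 change of 0.38 (SE 0.09, 95% interval 0.18 to 0.59) and an adjusted p of 0.0522. The other Col6a1 probe set, which was dimmer, had a log2 change of 0.00. Averaging its 2 probe sets gave 0.19 (adjusted p = 0.312). Col6a1 passed in 2 of 13 alternative settings, both filters that test fewer genes, at 0.0121 with those at or above the median level and at 0.0355 with those above the 25th percentile. The neighbouring gene Col6a2, whose chain joins that of Col6a1 in the trimer, was below background at 3.61 and 3.84 on the shLDHA arrays and 3.99 and 3.76 on the scramble arrays. Those arrays overlapped, and the log2 change was -0.15 (95% interval -0.44 to 0.14). Col6a3, the gene of the third chain of that trimer, was below background too and changed by -0.21 (adjusted p = 0.218).

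Of 11 fibrillar collagen genes 0 passed in limma and 1, Col1a2, had an unadjusted p under 0.05, and their changes ran from -0.25 to 0.16 with a median of -0.04. Col5a1, a chain of the type V collagen that helps to start fibrils, was the 1 member above background. It read 5.47 and 5.48 on the shLDHA arrays and 5.60 and 5.40 on the scramble arrays, so the groups overlapped, and the log2 change was -0.03 (95% interval -0.26 to 0.21). Col1a2, the second chain gene of type I collagen, had both shLDHA arrays (3.42 and 3.54) below both scramble arrays (3.67 and 3.80). Its log2 change of -0.25 did not pass (adjusted p = 0.185), and a dimmer second probe set of Col1a2 changed by 0.05.

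Fibril-associated collagens, which decorate the surface of fibrils, held 0 calls in limma among 9 genes, and 0 at an unadjusted p under 0.05, with changes from -0.18 to 0.22. Col16a1 read 4.88 and 4.92 on the shLDHA arrays and 5.10 and 5.06 on the scramble arrays. Its shLDHA arrays lay below its scramble arrays, and the log2 change was -0.18 (adjusted p = 0.272). Col9a2, known from cartilage, changed by -0.04 with overlapping groups.

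Of the 4 transmembrane collagens 0 passed in limma, and 2, Col17a1 and Col13a1, had an unadjusted p under 0.05. Col17a1, the gene of a hemidesmosomal collagen that holds basal epithelial cells to their basement membrane, read 3.57 and 3.57 on the shLDHA arrays, against 3.89 and 3.92 on the scramble arrays. Both shLDHA arrays lay below both scramble arrays, the log2 change was -0.34 (SE 0.08) and the adjusted p was 0.0659. Its signal lay below background in both groups. Col13a1 changed by 0.21 (adjusted p = 0.213), and Col23a1 and Col25a1 had overlapping groups.

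**Figure D4:**
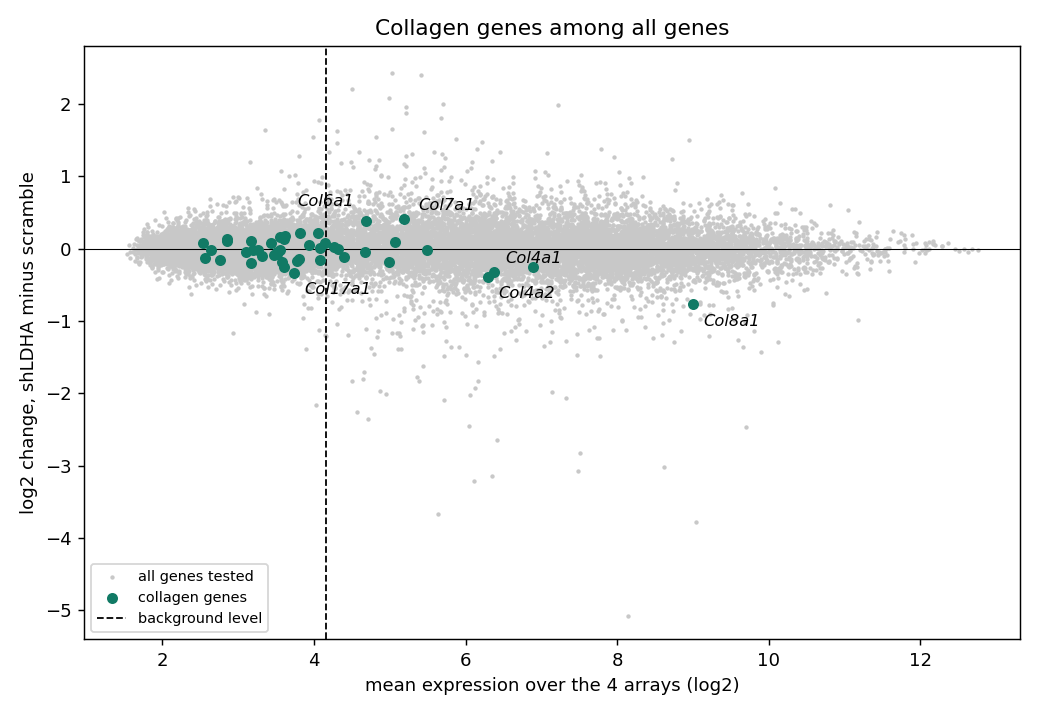
Each grey point is 1 of 22180 genes, with its mean log2 expression over the 4 arrays on the x axis and its log2 change, shLDHA minus scramble, on the y axis. The green points are the 44 collagen genes, 31 of them at or left of the dashed background line, and the 6 with an adjusted p under 0.1 are named. Collagen changes ran from -0.77 to 0.40, within a range over all genes of -5.08 to 2.42.

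Genes that modify, export, bind and degrade collagen were described from lists of 56, of which 51 were tested. Of these, 2 rose, 3 fell and 46 did not pass, so 9.80% passed against 6.36% of all genes, and the median log2 change was 0.01. The 5 were Pcolce and P4ha1, which rose, and Loxl3, Itga2 and Mmp13, which fell. More of the 51 genes were above background than of all genes tested (62.7% against 48.4%). All 5 were among the 32 above background, and 11.9% of all genes above background passed.

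Of 18 genes of chain modification and folding, 1 rose and 0 fell. P4ha1, a catalytic subunit of the prolyl hydroxylase that gives the helix its stability, read 8.93 and 8.87 on the shLDHA arrays, against 8.39 and 8.33 on the scramble arrays. The shLDHA arrays lay above the scramble arrays, with a log2 change of 0.55 (SE 0.08) and an adjusted p of 0.0170. That call was lost in 5 of 13 alternative settings, which were testing all probe sets (adjusted p = 0.105) and each fit without 1 array. In the fits without 1 array its log2 change ran from 0.52 to 0.58. The related subunit genes P4ha3 and P4ha2 changed by 0.38 and 0.28 and did not pass (adjusted p = 0.0543 and 0.231), and P4ha3 was below background. P3h1, a prolyl 3-hydroxylase, changed by -0.39 and did not pass (adjusted p = 0.0992). The collagen chaperone gene Serpinh1 changed by 0.08, with overlapping groups.

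Of 16 genes of export, propeptide removal and cross-linking, 1 rose and 1 fell. Pcolce, whose product speeds the removal of the carboxy-terminal propeptide of fibrillar procollagens, read 7.18 and 7.07 on the shLDHA arrays, against 5.74 and 5.83 on the scramble arrays. The groups lay far apart relative to their spread, with a 2.53-fold rise (log2 change 1.34, SE 0.09, adjusted p = 0.00125). It passed in 13 of 13 alternative settings. The protease that it enhances, encoded by Bmp1, changed by 0.14 (adjusted p = 0.391), and the related enhancer gene Pcolce2 by 0.24 (adjusted p = 0.190). Loxl3, a lysyl oxidase that cross-links collagen, read 5.89 and 6.11 on the shLDHA arrays, against 6.92 and 6.85 on the scramble arrays. It fell 1.84-fold (log2 change -0.88, SE 0.10, adjusted p = 0.00744), and the adjusted p was 0.0786 with all probe sets tested. Lox and Loxl1 were below background and changed by -0.02 and -0.03, while Loxl4 was above it and changed by 0.17.

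Of 9 collagen receptor genes, 1 fell and 0 rose. Itga2, the alpha 2 integrin subunit that pairs with beta 1 to bind collagen, read 9.34 and 9.12 on the shLDHA arrays, against 10.37 and 10.38 on the scramble arrays. It fell 2.20-fold (log2 change -1.14, SE 0.10, adjusted p = 0.00293), with an adjusted p of 0.0523 when all probe sets were tested. Its partner Itgb1 changed by -0.35 (adjusted p = 0.0814) and Itga1, the gene of another collagen-binding alpha subunit, by 0.33 (adjusted p = 0.0845). Itga11, the gene of a further such subunit, was below background and changed by -0.09 (adjusted p = 0.651). The collagen-binding kinase genes Ddr2 and Ddr1 changed by 0.33 and 0.01 (adjusted p = 0.0980 and 0.953).

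Of 8 genes of collagen degradation, 1 fell and 0 rose. Mmp13, a secreted collagenase of fibrillar collagen, read 4.67 and 4.34 on the shLDHA arrays, against 7.78 and 7.66 on the scramble arrays, a 9.30-fold fall (adjusted p = 0.000164). Its shLDHA readings lay close to the background level of 4.16, so the size of the fall may be understated. The membrane-anchored collagenase gene Mmp14 lay higher on both shLDHA arrays, at 9.21 and 9.23 against 8.83 and 8.91 on the scramble arrays, and its log2 change of 0.35 did not pass (adjusted p = 0.0653). Mmp2 and Mmp8 were below background, and Mmp9 changed by 0.10.

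**Figure D5:**
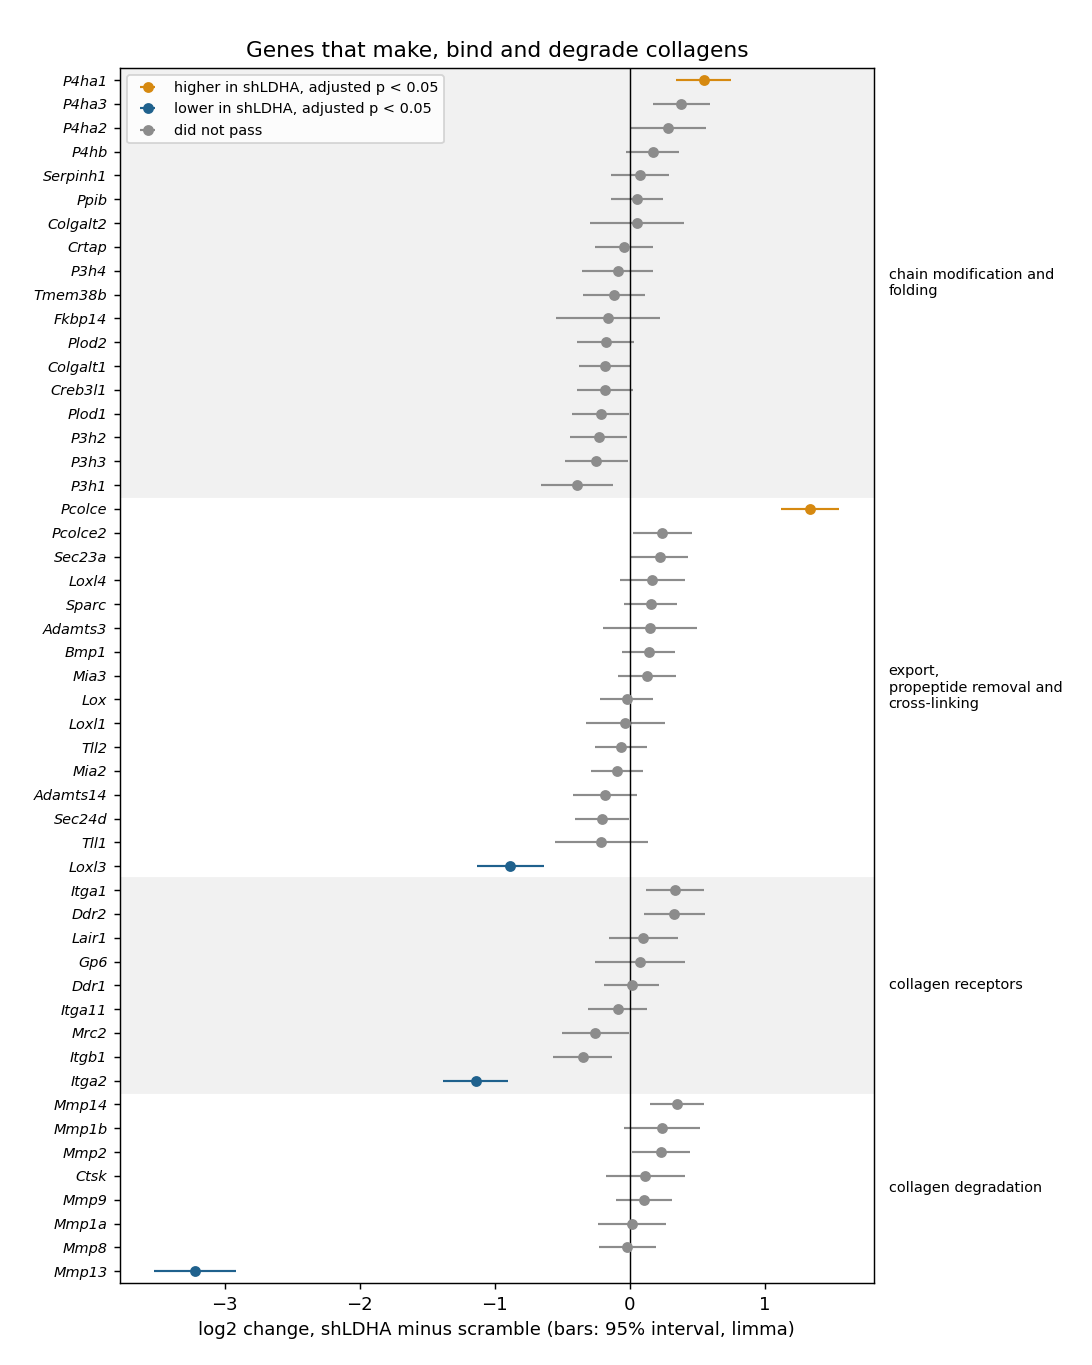
Points are the log2 change, shLDHA minus scramble, of the 51 tested genes that modify, export, bind or degrade collagen, and bars are the 95% interval from limma, with the 4 lists set apart by shading. Pcolce (1.34) and P4ha1 (0.55) were higher in shLDHA, and Loxl3 (-0.88), Itga2 (-1.14) and Mmp13 (-3.22) were lower at an adjusted p under 0.05.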

How the data were processed

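The authors deposited log2 expression values of 4 arrays, and the submitters' processing notes name RMA and R 3.4.0 for them. The labels' protocols give total RNA from Trizol and an input of 400 ng, and no source used here gives the annotation version. The values ran from 1.23 to 12.91. Of 41345 probe sets, 23521 had 1 gene symbol in the platform annotation, 1814 several and 16010 none. All columns of values were used. The shLDHA and scramble arrays were set against each other on the deposited values by lmFit and eBayes of limma 3.58.1 (R 4.3.3, two-sided), over 22180 genes with no filter on dim genes and no covariate. The fit had 2 residual and 4.52 prior degrees of freedom. An adjusted p is from that fit unless another setting is named, and the code was tested on simulated data. The number of arrays limits the precision. The members, the lists of related genes and the rule for named genes (every collagen gene, list members that passed, and up to 4 others per list with the smallest p) were chosen with earlier results of these data known. A few more genes of the lists, and all sequence motifs, were chosen after their values were seen. Alternatives were the replicate number as a block, 2 filters on dim genes (kept above the median or the 25th percentile), 2 rescalings, the mean of a gene's probe sets, all probe sets tested, a robust eBayes, an eBayes with a trend, each array left out in turn, and a threshold of 0.1. Chromosomes, neighbours and promoter sequences are from RefSeq tables of GRCm38.p6. Figures were drawn with matplotlib 3.10.9.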

Additional observations from a re-analysis of the deposited data

How the results depend on the processing

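The calls rest on 2 arrays per group, and array signal near background limits what can be said of 31 of the 44 collagen genes. Of the 44, 3 passed as reported. In limma the count was 1 with the replicate number as a block, 0 with every probe set tested and 6 at an adjusted p under 0.1. It was 5 of the 17 collagen genes tested with genes at or above the median level. With genes above the 25th percentile it was 5 of the 38 tested. An unadjusted p under 0.05 was reached by 7 genes with every probe set tested and by 10 as reported, where 21.5% of all genes reached it. The count was 2 to 4 in the other settings that kept all 4 arrays. Of the 51 genes that make, bind and degrade collagen, 5 passed as reported and 9 with an eBayes trend. The count was 2 with every probe set tested and 11 at an adjusted p under 0.1. It was 10 of the 33 tested with genes at or above the median level, and 7 of the 42 tested with genes above the 25th percentile. The other settings that kept all 4 arrays gave 5. The share of all genes that passed in the alternative fits is not given here. Filters test fewer genes, and testing every probe set adjusts over 41345 tests instead of 22180. Both also estimate anew the spread that limma shares across genes. With every probe set tested, the SE of the log2 change of Col6a1 was 0.088, against 0.085 as reported. The fit with the block and a fit without 1 array have fewer residual degrees of freedom. How far these features account for the shifts in these counts, and the cause of the other shifts in them, was not tested. The median log2 change of the collagen genes, -0.025 as reported, was -0.034 with genes above the 25th percentile and -0.049 after a second quantile normalization. It was -0.058 with arrays centred, -0.021 with the mean of probe sets, and -0.046 to -0.032 without 1 array. Centring moves the log2 change of every gene by the same amount, as for Ldha from -0.593 to -0.626, so that shift is not particular to the collagen genes. With the level set at the 90th or the 99th percentile of olfactory receptor genes, 22 or 5 collagen genes were above background, against 13 as reported. Ldha kept its log2 change of -0.59 but had an adjusted p of 0.0734 with the block and 0.168 with every probe set tested, and its log2 change ran from -0.73 to -0.45 without 1 array. The replicate number was not treated as a pairing, since same-numbered samples deviated together with a correlation of -0.03 across genes. With it as a block Col4a2 (adjusted p = 0.0897) and Col7a1 (0.0838) did not pass, and Col8a1 (0.0252) did. The 6 collagen and 11 related genes with an adjusted p under 0.1 kept their sign in each alternative setting that tested them.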
